A study of Arabidopsis thaliana with 4 samples.

Results

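The genes described here are 9 nuclear genes of Arabidopsis thaliana around the salicylic acid receptor NPR1, taken by locus from the 37869 loci of each count table. They are the receptors NPR1 (AT1G64280) and NPR3 (AT5G45110), the NPR1 interactor NIMIN1 (AT1G02450), the glutaredoxin GRX480 (AT1G28480) and the output genes PR1 (AT2G14610), PR2 (AT3G57260), PR5 (AT1G75040), PCC1 (AT3G22231) and ELI3-2 (AT4G37990). They were picked with their levels in these same libraries known. Messenger RNA was sequenced from whole seedlings of tho2-8 and of Col-LUC, 14 days old and grown on soil under 16 hours of light and 8 hours of dark, with 2 libraries per genotype. The genotype field reads Col-LUC for all 4 libraries, so groups were taken from the titles. The sources used here do not describe the tho2-8 allele or what Col-LUC carries, and they do not say whether replicates were separate plants, so each p-value reflects library-to-library spread alone, possibly technical.

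THO2, the gene after which the mutant is named, encodes a subunit of the THO complex, which acts in messenger RNA export. Its level was 82.1 and 84.6 counts per 1000000 counts (CPM, library sizes scaled by TMM) in Col-LUC, 109 and 100 in tho2-8. The message was therefore not lower in the libraries labelled tho2-8 (log2 fold change 0.33 ± 0.15 SE, edgeR adjusted p = 0.34), and with the allele undescribed this level does not check the labels.

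Salicylic acid is the plant hormone of resistance to biotrophic pathogens. NPR1 binds it and works in the nucleus as a coactivator with TGA bZIP transcription factors, while NPR3 and NPR4 also bind it and act as corepressors. The PR genes encode secreted antimicrobial proteins whose messages are the standard readout of the pathway in leaves.

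TGA and WRKY factors are the known regulators of output genes such as these. AT3G22235, the next coding gene beyond PCC1, shares part of its sequence with PCC1. Upstream sequences of 2 output genes and of AT3G22235 are therefore printed. They were read from the RefSeq TAIR10.1 genome on the minus strand, 5′ to 3′ toward the gene. Capitals mark TGACG, the core of the element bound by TGA factors, and TTGAC, the core of the W box bound by WRKY factors, on either strand. These motifs overlap wherever TTGACG is read. The PR2 window covers bases 550 to 251 before the annotated start (chr3:21190218-21190517) and was placed after the matches were seen. The PCC1 and AT3G22235 windows cover bases 250 to 1 (chr3:7846834-7847083 and chr3:7855815-7856064).
PR2: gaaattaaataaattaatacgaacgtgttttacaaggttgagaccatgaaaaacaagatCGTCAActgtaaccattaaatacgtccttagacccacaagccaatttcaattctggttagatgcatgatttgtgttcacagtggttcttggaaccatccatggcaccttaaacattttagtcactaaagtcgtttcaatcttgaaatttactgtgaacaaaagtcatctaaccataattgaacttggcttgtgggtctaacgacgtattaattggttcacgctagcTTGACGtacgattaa
PCC1: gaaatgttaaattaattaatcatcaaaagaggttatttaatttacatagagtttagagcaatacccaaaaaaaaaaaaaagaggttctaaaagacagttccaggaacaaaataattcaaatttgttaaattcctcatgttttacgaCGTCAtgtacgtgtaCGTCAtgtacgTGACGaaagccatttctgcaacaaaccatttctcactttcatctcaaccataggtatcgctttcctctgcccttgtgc
AT3G22235: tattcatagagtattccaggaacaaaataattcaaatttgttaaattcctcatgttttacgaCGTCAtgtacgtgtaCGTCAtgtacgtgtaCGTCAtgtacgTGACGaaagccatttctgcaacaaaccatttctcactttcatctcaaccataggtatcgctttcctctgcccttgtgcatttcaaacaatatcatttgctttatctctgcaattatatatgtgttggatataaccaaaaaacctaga

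PR2 had TGACG and TTGAC overlapping in both places, with first bases 491 and 490 before its start and again at 264 and 265. PCC1 had 3 TGACG matches within 104 bases of its start. AT3G22235 had 4, in a window that shared an identical run of 105 bases with that of PCC1.

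The motifs did not divide the output genes from the others. Within 250 bases of the start, 3 of the 9 genes (NPR3, GRX480 and PCC1) held TGACG, against 18.6% of 27443 windows of protein-coding genes, and 0.583% of those windows held 3 or more. TTGAC was found there for 3 of 9 (NPR3, PR1 and PR5), against 44.9%. The G box CACGTG was found for PR2 alone, against 6.49%, and the GCC box GCCGCC for 0 of 9. Within 1000 bases TGACG was found for 7 of 9 against 54.1%, most often before NPR3 with 7 matches, and TTGAC for 6 of 9 against 88.1%. A match describes the sequence, and binding was not measured.

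The receptor genes differed little between genotypes, while all 5 output genes were lower in both tho2-8 libraries. Since the genes were picked from this comparison, their levels and fold changes are a description with no test. The libraries held between 17119534 and 17877941 counts, so that 3 counts equal 0.165 to 0.177 CPM. Because whole seedlings were used, fewer cells of a type and less RNA per cell cannot be told apart.

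NPR1 measured 36.5 and 43.2 CPM in Col-LUC against 43.3 and 36.8 in tho2-8. The groups overlapped, and the log2 fold change, tho2-8 over Col-LUC, was 0.0077 ± 0.17 (SE, n = 2 per genotype). NPR1 lies on chromosome 1 from 23852748 to 23855658 on the minus strand, with 4 exons. On the other strand it overlaps AT1G64270 by 38 bp and AT1G08667, which was at 0 CPM in every library, by 214 bp. The library kit marks strand but the counting setting is not known.

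NPR3, the corepressor, measured 40.7 and 37.8 CPM in Col-LUC against 50.7 and 49.2 in tho2-8. Both tho2-8 libraries were above both Col-LUC libraries, by 0.35 ± 0.14 (SE) on the log2 scale. NPR3 has 3 exons on the plus strand of chromosome 5, from 18228768 to 18231588.

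The cofactors had few reads. NIMIN1, which binds NPR1 and holds back PR1 induction, had 11 and 10 counts in Col-LUC against 19 and 6 in tho2-8. GRX480, a CC-type glutaredoxin that binds TGA factors and represses PDF1.2, had 24 and 7 counts in Col-LUC against 19 and 14 in tho2-8. For both genes the genotypes overlapped, with log2 fold changes of 0.18 ± 0.71 and 0.029 ± 0.69 (SE). The GRX480 libraries of Col-LUC differed from each other more than the means of the genotypes did. Both are single-exon genes on the minus strand of chromosome 1, NIMIN1 from 497917 to 498539 and GRX480 from 10013434 to 10014256.

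PR1, a secreted CAP-family protein and the classical marker of salicylic acid responses, measured 117 and 186 CPM in Col-LUC against 6.32 and 0.055 in tho2-8. The last value is 1 count, for which an exact Poisson interval of 95% runs from 0.00139 to 0.306 CPM and covers counting error only. Both tho2-8 values were below both Col-LUC values, and the tho2-8 libraries also lay far from each other. The log2 fold change was -5.57 ± 1.00 (SE). PR1 is a single-exon gene on chromosome 2 from 6241640 to 6242541 on the minus strand.

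PR2, a beta-1,3-glucanase annotated as BGL2, measured 91.7 and 55.3 CPM in Col-LUC against 11.1 and 2.25 in tho2-8. The genotypes did not overlap, and the log2 fold change was -3.46 ± 0.63 (SE). PR2 lies on chromosome 3 from 21188397 to 21189967 on the minus strand, with 2 exons. PR5, a thaumatin-like protein, measured 31.4 and 11.5 CPM in Col-LUC against 4.75 and 2.14 in tho2-8. The groups were again apart, by -2.64 ± 0.56 (SE) on the log2 scale, although the Col-LUC libraries differed from each other more than for the other output genes. PR5 also has 2 exons and spans 28177670 to 28179022 on the plus strand of chromosome 1.

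PCC1, a small cysteine-rich membrane protein gene named for its control by pathogens and by the clock, measured 35.2 and 43.4 CPM in Col-LUC against 11.6 and 4.67 in tho2-8. The genotypes did not overlap, and the log2 fold change was -2.27 ± 0.39 (SE). PCC1 lies on chromosome 3 from 7845823 to 7846833 on the minus strand, with 3 exons, and its counts were fractional in all 4 libraries. Of the 626 stretches of 50 bases in its exons, 38.2% also occur elsewhere in the nuclear genome, 219 of them in AT3G22235, so its level is uncertain for shared reads. For each of the other 8 genes 0% of such stretches recur.

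ELI3-2, an elicitor-activated gene of the cinnamyl alcohol dehydrogenase family, measured 4.99 and 5.14 CPM in Col-LUC against 0.335 and 0.22 in tho2-8. These are 87 and 87 counts against 6 and 4, with a log2 fold change of -4.16 ± 0.49 (SE). In each genotype its libraries lay closer together on the log2 scale than those of the other output genes. ELI3-2 was below the filter level of 0.563 CPM in both tho2-8 libraries and so entered the test only through Col-LUC. PR1 and NIMIN1 were below that level in tho2-8 replicate 2, at 0.055 and 0.33 CPM. The filter asks for as many libraries at that level as a genotype has, so they too needed Col-LUC to pass. The 4 exons of ELI3-2 span 17855637 to 17857878 on the plus strand of chromosome 4.

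**Figure D1:**
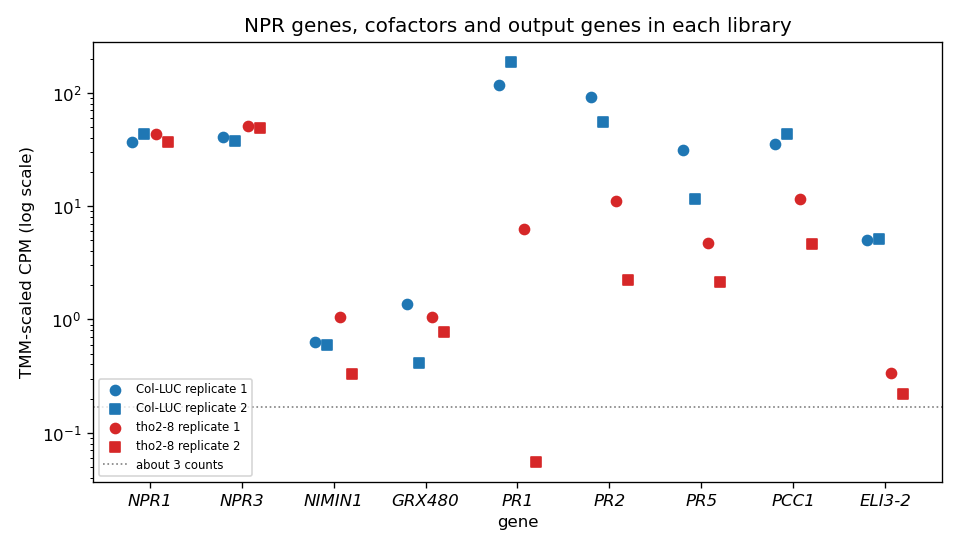
TMM-scaled CPM (log axis) of the 9 genes, with 1 point per library, circles for replicate 1 and squares for replicate 2, and a dotted line at about 3 counts. NPR1 and NPR3 sit between 36.5 and 50.7 CPM in every library, while PR1 runs from 186 CPM in Col-LUC to 0.055 CPM in tho2-8. All 9 genes, the 5 output genes among them, are lower in tho2-8 replicate 2 than in replicate 1.

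All 9 genes passed the filter on low counts. edgeR's quasi-likelihood test called 0 of them at an adjusted p under 0.05, where it called 0.00954% of all 20975 tested genes. At an unadjusted p under 0.05 the 5 output genes were lower (7.18% of all genes) and NPR3 was higher (8.4%). DESeq2 called PR2, PR5, PCC1 and ELI3-2 lower (1.36%) and 0 higher (1.28%), and limma-voom called 0 (0.00477%). Both tho2-8 libraries were below both Col-LUC libraries for the 5 output genes (22.8%) and above them for NPR3 (25.8%). The log2 fold change was -2 or less for the 5 output genes (0.572%). The genes were chosen from this comparison, so nothing is read from these counts.

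The order of the genes by level, as CPM per kilobase of the longest transcript, differed between the genotypes. In Col-LUC PR1 was highest at 168 ± 54.3 (SD, n = 2), followed by PCC1 at 50.8 ± 7.5 and PR2 at 49.8 ± 17.5, whose libraries overlapped. PR5 at 19.6 ± 12.9 overlapped NPR1 at 15.3 ± 1.81 and NPR3 at 15 ± 0.769 on the same scale. ELI3-2 stood at 2.67 ± 0.0558, above GRX480 at 1.09 ± 0.827 and NIMIN1 at 0.98 ± 0.0455, which overlapped. In tho2-8 NPR3 was highest at 19 ± 0.393 CPM per kilobase, then NPR1 at 15.3 ± 1.76, which overlapped PCC1 at 10.5 ± 6.36. PCC1 in turn overlapped PR2 at 4.51 ± 4.22, and PR2, PR1 at 3.53 ± 4.91 and PR5 at 3.15 ± 1.68 overlapped one another. NIMIN1 at 1.12 ± 0.831 and GRX480 at 1.11 ± 0.251 overlapped, and ELI3-2 was lowest by mean at 0.146 ± 0.0431. PR1 ran from 7 in replicate 1 to 0.0609 in replicate 2, so it also overlapped PCC1, NIMIN1, GRX480 and ELI3-2. PR2 overlapped NIMIN1 as well.

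The tho2-8 libraries differed in how low the output genes stood. As differences in log2 CPM (prior count 2) from the Col-LUC mean, PR1 was at -4.52 in replicate 1 and -9.77 in replicate 2. PR2 was at -2.67 and -4.91, PR5 at -1.97 and -3.08, and PCC1 at -1.74 and -3.03. Of the output genes ELI3-2 differed least, with -3.53 and -3.96. Replicate 2 was the lower for all 5, but this was not particular to them. It was also the lower for NPR1, at 0.12 and -0.11, and for NPR3, at 0.37 and 0.33. The same held for NIMIN1, at 0.70 and -0.71, and for GRX480, at 0.41 and -0.0044, both on few counts.

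**Figure D2:**
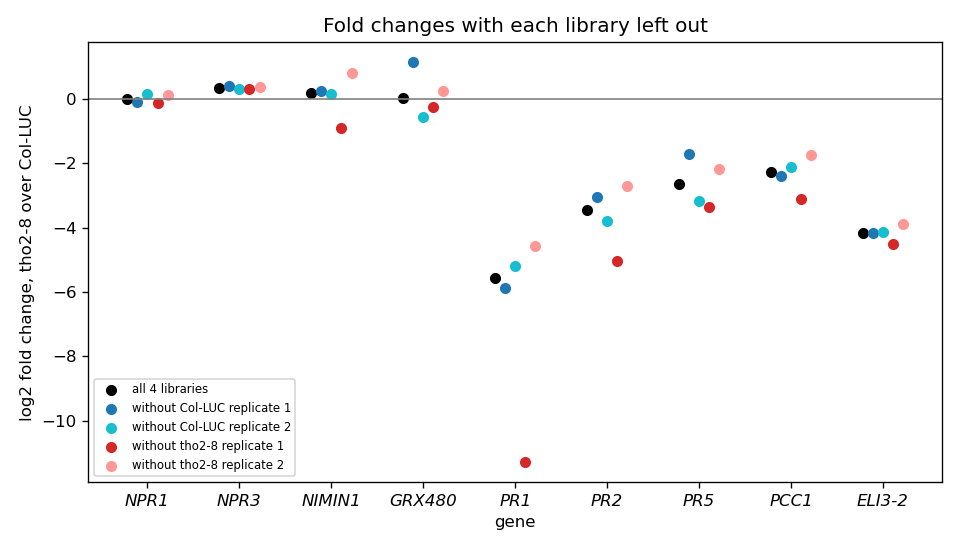
Fitted log2 fold change (tho2-8 over Col-LUC) of the 9 genes with all 4 libraries and with each library left out in turn, 1 point per fit. The 5 output genes stay below 0 in every fit shown, and PR1 reaches -11.28 without tho2-8 replicate 1, where tho2-8 rests on 1 count.

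Leaving out tho2-8 replicate 1 gave the lowest fold change of each output gene. PR1 was then at -11.28 on the log2 scale, a fitted value that rests on 1 count and depends on the prior count, and at -4.57 without tho2-8 replicate 2. PR2 was at -5.05 and -2.72, PCC1 at -3.10 and -1.75 and ELI3-2 at -4.51 and -3.88 in the same pair of fits. PR5 was at -3.35 without tho2-8 replicate 1 and at -1.73 without Col-LUC replicate 1. NPR3 stayed between 0.30 and 0.40 in the 4 fits. The sign of NPR1, NIMIN1 and GRX480 depended on which library was left out, with GRX480 at -0.58 without the second Col-LUC library and 1.13 without the first.

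Of the receptor family, NPR4, the other corepressor receptor, measured 31.2 and 37.7 CPM in Col-LUC against 53.2 and 44.3 in tho2-8. Both tho2-8 libraries were higher, with a log2 fold change of 0.50 ± 0.17 (SE) and an adjusted p of 0.259 by edgeR. BOP2 and BOP1, members of the same protein family that pattern leaf bases, had log2 fold changes of -0.41 ± 0.20 and -1.11 ± 0.76. BOP2 overlaps AT2G41375 on the other strand by 607 bp. Of these 3 genes edgeR, DESeq2 and limma-voom called 0. NPR4 was higher at an unadjusted edgeR p under 0.05 (8.4% of all tested genes).

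PCC1 sits in a run of similar genes that were lower in tho2-8 as well. AT3G22235, a cysteine-rich transmembrane module protein, measured 52.9 and 67.5 CPM in Col-LUC against 20.8 and 8.52 in tho2-8 (log2 fold change -2.04 ± 0.38 SE). AT3G22240, annotated as PCC1-like, measured 61.5 and 44.2 CPM against 24.2 and 14.2 (-1.46 ± 0.28 SE). The edgeR adjusted p was 0.128 for each, and DESeq2 called both (adjusted p = 2.16e-06 and 0.000218). Of the 50-base exon stretches of AT3G22235, 85.7% recur elsewhere in the genome, 174 of them in PCC1 and 179 in AT3G22240, so reads may be shared. PCC1 and AT3G22240 shared 0.

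ELI3-1, which lies 1028 bp from ELI3-2 on the same strand and encodes a similar dehydrogenase, measured 79.1 and 154 CPM in Col-LUC against 123 and 65.1 in tho2-8. The genotypes overlapped (log2 fold change -0.31 ± 0.38 SE, edgeR adjusted p = 0.741). Beside PR2, the glucanase gene BG3 measured 0.86 and 0.768 CPM against 0.112 and 0.385, and BG1 was at or under 3 counts in every library. PRB1, a basic relative of PR1 that lies 15412 bp from it, had 0 and 0 counts in Col-LUC against 14 and 2 in tho2-8 and did not pass the filter. LURP1, the second coding gene on that side of PR1 and named after its values were seen, measured 68.2 and 97.3 CPM against 27.3 and 5.66.

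Over the 36 coding neighbours of the 9 genes, 2 on each side, 21 were tested. edgeR and limma-voom called 0 of them. Unadjusted edgeR p was under 0.05 for 3 that were lower (7.18% of all tested genes) and 2 that were higher (8.4%). With so few genes, nothing is read from these counts. DESeq2 called AT3G22235 and AT3G22240 lower (1.36% of all tested genes) and BRG1 higher (1.28%). BRG1 lies beside NPR3 and is named after its values were seen.

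PR3 and PR4, a chitinase and a hevein-like protein usually read as ethylene and jasmonate outputs, were lower in both tho2-8 libraries. PR3 measured 286 and 180 CPM against 136 and 83.7, and PR4 631 and 460 CPM against 336 and 159. Their log2 fold changes were -1.08 ± 0.31 and -1.14 ± 0.37 (SE), with adjusted p of 0.2 and 0.23 by edgeR and 0.00826 and 0.01 by DESeq2. PR3 overlaps AT3G12502 on the other strand by 1579 bp. In all, 8 of the 11 relatives and neighbours were tested, with a median log2 fold change of -1.11 beside 0.014 over all tested genes. That median was -0.71 with Col-LUC replicate 1 left out and -0.73 with tho2-8 replicate 2 left out. edgeR and limma-voom called 0 of these 8, while DESeq2 called AT3G22235, AT3G22240, PR3 and PR4 lower (1.36% of all tested genes). The same 4 were lower at an unadjusted edgeR p under 0.05 (7.18% of all tested genes).

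**Figure D3:**
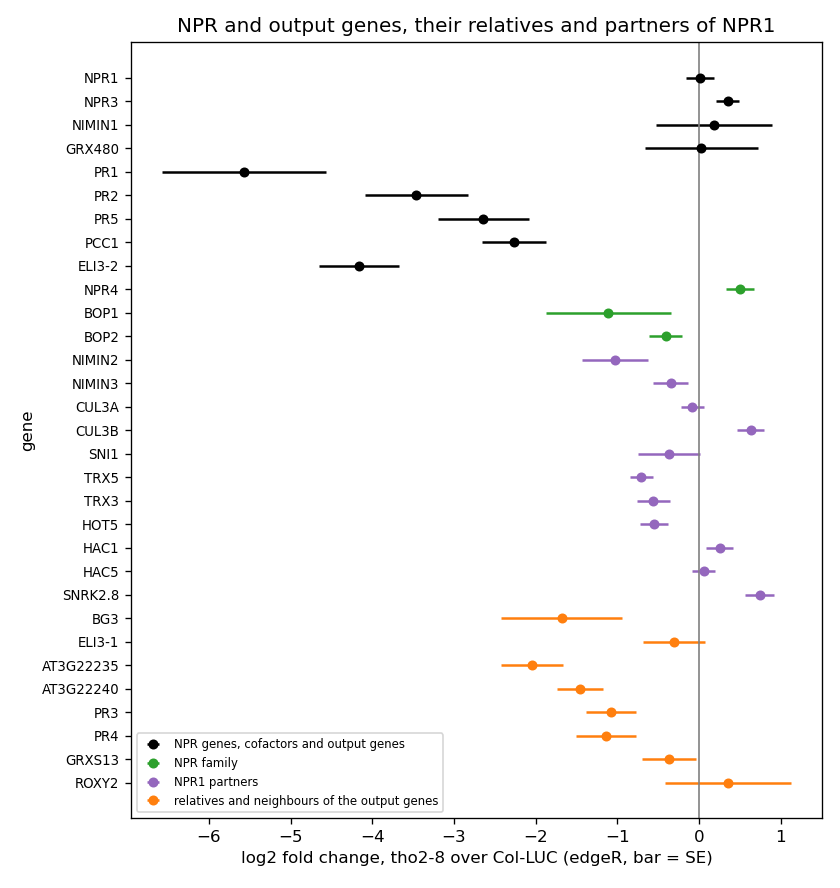
Log2 fold change (tho2-8 over Col-LUC, edgeR) with its SE for the 9 genes in black, NPR relatives in green, NPR1 partners in purple and relatives or neighbours of the output genes in orange. PR1 at -5.57 and ELI3-2 at -4.16 lie farthest to the left, and the NPR1 partners lie between -1.03 and 0.74.

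The TGA factor genes, some of whose products bring NPR1 to promoters, gave no call. All 10 were tested, with a median log2 fold change of -0.015. edgeR, DESeq2 and limma-voom called 0 of them, and 0 had an unadjusted p under 0.05. TGA7 was at -0.31 ± 0.15, TGA2 at 0.28 ± 0.16, TGA6 at 0.32 ± 0.21 and TGA9 at -0.39 ± 0.30 (SE) on the log2 scale. TGA6 overlaps AT3G02485 on the other strand by 894 bp.

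Among 11 genes for proteins that bind or modify NPR1, edgeR, DESeq2 and limma-voom called 0, and the median log2 fold change was -0.35. TRX5, a thioredoxin that reduces NPR1 oligomers, measured 54.6 and 52.5 CPM in Col-LUC against 33 and 32.5 in tho2-8 (log2 fold change -0.71 ± 0.14 SE, edgeR adjusted p = 0.129). HOT5, the S-nitrosoglutathione reductase, had a log2 fold change of -0.55 ± 0.17. The kinase SNRK2.8, which phosphorylates NPR1, had 0.74 ± 0.18, and CUL3B, a scaffold of the ubiquitin ligase, 0.63 ± 0.16. At an unadjusted edgeR p under 0.05, 4 were lower (7.18% of all tested genes) and 2 higher (8.4%). The lower ones included TRX3 and NIMIN2, named after their values were seen. SNRK2.8 overlaps AT1G78280 on the other strand by 169 bp and HOT5 overlaps AT5G43950 by 35 bp.

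Other genes known to be induced by salicylic acid were lower only in part. Of 15, all tested, DESeq2 called DLO1, DMR6, AED1 and WRKY54 lower (1.36% of all tested genes) and 0 higher (1.28%). edgeR and limma-voom called 0. Unadjusted edgeR p was under 0.05 for 7 that were lower (7.18% of all tested genes) and 1 that was higher (8.4%). The median log2 fold change was -1.37, and as a difference from the Col-LUC mean the median was -0.87 in tho2-8 replicate 1 and -1.67 in replicate 2.

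DLO1 and DMR6, which hydroxylate salicylic acid, measured 13.1 and 11.9 CPM against 3.63 and 2.2, and 47.5 and 47.6 CPM against 26.1 and 12. AED1, a secreted aspartic protease, had a log2 fold change of -2.12 ± 0.34 and the transcription factor gene WRKY54 of -1.41 ± 0.33 (SE). DESeq2 gave DLO1, DMR6, AED1 and WRKY54 adjusted p of 5.36e-05, 0.00465, 5.16e-06 and 0.039, and edgeR 0.105, 0.172, 0.107 and 0.158. In 5 genes of the list, WRKY70, WRKY53, ACD6, WRKY18 and WRKY46, named after their values were seen, the tho2-8 libraries were not both below the Col-LUC libraries. WRKY70, a transcription factor that favours salicylic acid over jasmonate outputs, measured 25.3 and 35.7 CPM against 38.3 and 27.7. ACD6, a membrane ankyrin protein that raises salicylic acid, measured 104 and 203 CPM against 198 and 117. WRKY53, a senescence-linked transcription factor, measured 5.68 and 9.27 CPM against 6.37 and 7.75, and WRKY18 20.8 and 20.9 CPM against 22.6 and 33.4. WRKY53 overlaps 3xHMG-box2 on the other strand by 341 bp. WRKY46 was the gene higher at an unadjusted p under 0.05, with 3.32 and 3.54 CPM against 5.54 and 12.5.

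**Figure D4:**
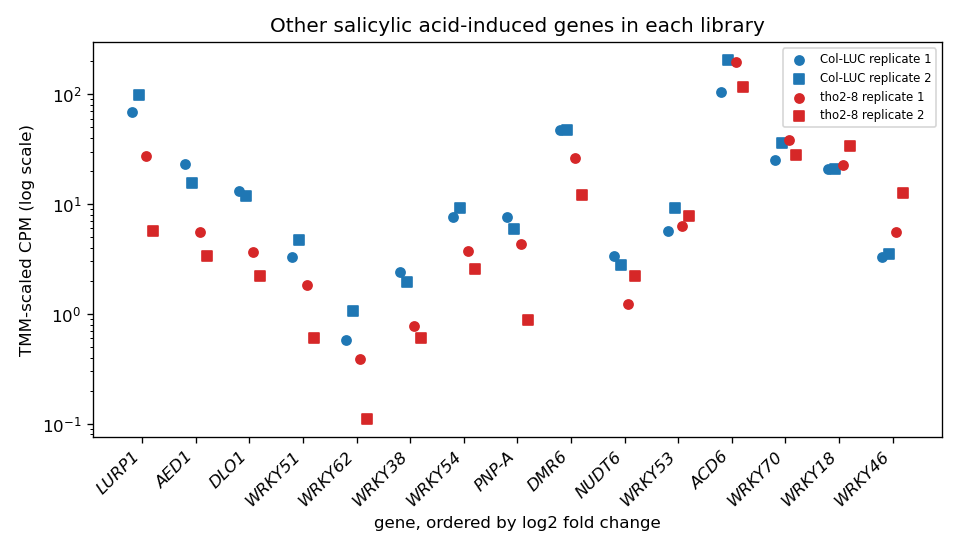
TMM-scaled CPM (log axis) of 15 other salicylic acid-induced genes, ordered by log2 fold change, with 1 point per library, circles for replicate 1 and squares for replicate 2. Both tho2-8 libraries lie below both Col-LUC libraries for 10 genes (22.8% of all tested genes) and above them for 2 (25.8%).

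Upstream of the receptors, 10 genes of salicylic acid synthesis and its control were tested, with a median log2 fold change of -0.32. edgeR and limma-voom called 0, and DESeq2 called SARD1 and FMO1 lower (1.36% of all tested genes). SARD1, a transcription factor that activates ICS1, had a log2 fold change of -1.67 ± 0.36, and FMO1, which makes N-hydroxypipecolic acid, -2.34 ± 0.69 (SE). SARD1 overlaps GIP2 on the other strand by 640 bp. UGT76B1, a glucosyltransferase of salicylic acid, had -1.16 ± 0.44. UGT76B1, SARD1 and FMO1 were the 3 lower at an unadjusted edgeR p under 0.05 (7.18% of all tested genes). PAD4, a lipase-like regulator, had -0.39 ± 0.20. ICS1, which encodes isochorismate synthase and is named after its values were seen, measured 11.9 and 11.4 CPM against 10.1 and 9.34, with an adjusted p of 0.612 by edgeR.

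Among jasmonate outputs, the defensin genes PDF1.2c and PDF1.2b set the tho2-8 libraries apart from each other. Both have similar copies, but sharing of reads was not checked, and their counts were whole numbers in every library. They measured 2.69 and 3.84 CPM and 0.745 and 1.42 CPM in Col-LUC. In tho2-8 replicate 1 they were at 20.2 and 8.39 CPM, and in replicate 2 at 0.275 and 0. PDF1.2 and VSP2 are named after their values were seen. PDF1.2 measured 7.45 and 8.62 CPM in Col-LUC against 29.2 and 1.04 in tho2-8. VSP2 was instead the higher in tho2-8 replicate 2, with 169 and 221 CPM in Col-LUC against 111 and 260 in tho2-8. VSP1 had a log2 fold change of -0.53 ± 0.15 and LOX2 of -0.56 ± 0.33. Of the 6 tested genes edgeR, DESeq2 and limma-voom called 0. VSP1 was lower at an unadjusted edgeR p under 0.05 (7.18% of all tested genes). The median was 0.42, but -0.53 with limma-voom, -0.19 with the replicate block and -2.04 without tho2-8 replicate 1.

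The 4 genes of early pattern-triggered responses, NHL10, CYP81F2, WRKY29 and FRK1, had log2 fold changes of -0.94, -0.41, -0.48 and -0.35. edgeR, DESeq2 and limma-voom called 0 of them, and 0 had an unadjusted p under 0.05. Their median was -0.44, and -1.46 without tho2-8 replicate 1. FRK1 and WRKY29 overlap genes on the other strand.

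Profiles most like those of PR1 and ELI3-2 were found by the distance between log2 CPM centred on each gene's mean over the 4 libraries, a description that uses the same values. For PR1 the nearest of 20966 other genes were SAG13 at 3.99, TPS04 at 4.02, AT1G26390 at 4.09, BGLU34 at 4.31 and CYP76C2 at 4.32, where the median gene was at 8.10. Of the other 8 genes, PR2 was nearest to PR1 at 4.10. For ELI3-2 they were AT3G29970 at 0.37, AT7SL-1 at 0.56, AT4G04595 and AT3G15536 at 0.65 and NATA1 at 0.70, where the median gene was at 3.79. NATA1 measured 12.6 and 10.7 CPM in Col-LUC against 1.57 and 1.04 in tho2-8, and AT7SL-1 81.3 and 80.1 against 9.23 and 8.08. The others were near the floor in tho2-8, with AT3G29970 at 0 and 0 CPM, AT3G15536 at 0.0559 and 0 and AT4G04595 at 0.28 and 0.055. In the PR1 list, TPS04 and BGLU34 were at 0 CPM in tho2-8 replicate 2. At so few counts the distance depends on the prior count.

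Tissue markers also differed between libraries. Summed over 7 root markers, the level was 61.7 and 33.7 CPM in Col-LUC against 28.9 and 15.9 in tho2-8, and all 6 tested had a log2 fold change below 0. Of these edgeR and limma-voom called 0 and DESeq2 called CASP1 lower (1.36% of all tested genes). CASP1, CASP2 and COBL9 were lower at an unadjusted edgeR p under 0.05 (7.18% of all tested genes). The 6 floral organ markers summed to 13.3 and 40.7 CPM in Col-LUC against 16.2 and 16.2. The 5 leaf markers summed to 10251 and 15058 CPM against 13005 and 10483. LHCB2.1 and LHCB3 were higher at an unadjusted edgeR p under 0.05 (8.4% of all tested genes). For floral and leaf markers edgeR, DESeq2 and limma-voom called 0. Of the floral markers 1, AP1, was lower at an unadjusted edgeR p under 0.05 (7.18% of all tested genes). AP1 measured 2.01 and 10.6 CPM in Col-LUC against 2.18 and 1.04 in tho2-8, so its genotypes overlapped. SAG12, the marker of late leaf senescence, was at 0 counts in every library. The part of tissue composition in the levels of the 9 genes was not tested.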

How the data were processed

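Messenger RNA of 4 seedling libraries was sequenced, with a stranded kit per the labels' protocols. The authors deposited estimated counts per locus without normalisation. Tools named in the submitters' processing notes are HISAT2 2.1.0, Trimmomatic, DESeq2 1.24.0 and featureCounts 1.6.3, with the build TAIR10, and the settings for strand and shared reads are not known. Between 2.06% and 2.15% of loci had fractional values, so values were rounded to whole counts before testing, where the design had assumed whole counts. All 296 organelle loci were at 0. Replicates differed beyond sampling noise (chi-square per gene 24.8 and 22.6).

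edgeR 4.0.16 in R 4.3.3 was used (filterByExpr, TMM, glmQLFit, glmQLFTest, genotype as the only term, Benjamini-Hochberg over 20975 genes, threshold 0.05), with limma 3.58.1 (voom) and DESeq2 1.42.0 as alternatives. Further alternatives were other scaling, no filter, another prior count, a replicate block and leaving out each library. SE was the log2 fold change over the square root of F. Symbols, 1-based positions and sequences came from RefSeq TAIR10.1. Of 93 list entries 2 were left out, since name and locus were not paired in the annotation. The genes and lists were chosen with earlier results of these data known. Besides the 9 genes, the text names up to 4 tested genes of smallest p per list, NPR relatives, relatives and neighbours of the output genes, tissue markers, the 5 nearest profiles to PR1 and ELI3-2, and exceptions stated as such. The labels give no batch or date. One upstream sequence is not reported here.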

Additional observations from a re-analysis of the deposited data

How the results depend on the processing

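The count of genes called over all tested genes, 2 with edgeR and TMM, depended on the tool and on single libraries. It was 57 with no filter on low counts, 555 with DESeq2 and 1 with limma-voom. It ranged from 0 to 701 with 1 library left out, a fit in which the lone library of a genotype is assumed to vary like the others, being 0 without either Col-LUC library, 701 without tho2-8 replicate 1 and 115 without tho2-8 replicate 2. The count was 2 with the replicate block. The replicate differences of the genotypes correlated at -0.125 over genes, which cannot show whether libraries of the same number share a batch. Whether libraries are paired is therefore not known. A crossed pairing, chosen after seeing the data, called 510. Lower at an unadjusted edgeR p under 0.05 were 7.18% of all tested genes. Pathway genes here are the 67 tested genes of the lists other than tissue and senescence markers. These lists were chosen with earlier results of these data known. The count of pathway genes lower at an unadjusted p under 0.05, 19, was 18 with the replicate block, ranged from 14 to 26 with 1 library left out and from 18 to 22 under the other alternatives.

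With 1 library left out, list medians ranged as follows on the log2 scale: NPR1 partners from -0.37 to -0.14, TGA factors from -0.16 to 0.2, relatives and neighbours from -1.35 to -0.71, other salicylic acid-induced genes from -1.86 to -1.04, synthesis and upstream regulators from -0.67 to -0.26, jasmonate-responsive genes from -2.04 to 0.86, pattern-triggered genes from -1.46 to 0.014, root markers from -1.51 to -0.66 and floral organ markers from -1.32 to 0.53. The jasmonate median, 0.42, was -0.53 with limma-voom, -0.19 with the replicate block and -0.15 with the crossed one. The 5 output genes kept a log2 fold change below 0 under each alternative run. ELI3-2 stood at -3.73 with a prior count of 2. NIMIN1 turned negative with limma-voom (-0.039) and without tho2-8 replicate 1 (-0.90), and NPR1 with DESeq2 (-0.0079) and with its size factors (-0.011). Counts were low for NIMIN1, GRX480 and the tho2-8 levels of ELI3-2, and for PR1 in tho2-8 replicate 2.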
